A study of Mus musculus with 2 samples.

Results

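The Wnt genes described here are those that code for Wnt ligands, Frizzled receptors and their co-receptors, Norrin and its partner *Tspan12*, secreted Wnt inhibitors, R-spondins and the ubiquitin ligases they oppose, and the nuclear factors and feedback genes *Axin2*, *Lef1*, *Tcf7l1* and *Tcf7l2*. They were chosen by gene symbol, through the probe sets annotated to exactly 1 gene, and the rule reads no measured value. The rule was, however, written with earlier results of these data known. The choice covered 52 of the 18193 genes measured, with 99 of 34945 probe sets, and *Tcf7* was not analysed here because no such probe set carried its symbol.

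Expression was measured on 2 Affymetrix arrays of primary neonatal ventricular cardiomyocytes (mNVCM) of C57BL6/J mice, taken 2 days after birth. The cells of the first array, hAFS-CM_Hypo + Dox, were pre-incubated for 3 h with medium conditioned by human amniotic fluid-derived stem cells under hypoxia and then exposed to 1 μM doxorubicin (Dox), an anthracycline used against cancer that can harm the heart. The cells of the other array, Dox, had Dox at the same dose and no conditioned medium, and both had 1 h in low-serum medium beforehand. The methods describe 6 h of Dox for expression profiling, whereas the deposited labels give 6 h for hAFS-CM_Hypo + Dox and 21 h for Dox, so the pre-incubation and the labelled hours cannot be told apart. Each condition had a single array, so nothing here carries a standard error, a p-value or a replicate check, and every value describes these 2 cultures.

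Wnt proteins are secreted lipid-modified ligands that bind a Frizzled receptor together with the co-receptor LRP5 or LRP6. In the canonical branch this stops the destruction complex from breaking down β-catenin, which then acts with TCF and LEF factors on target genes. In the other branches Wnt proteins act on cell polarity and calcium. In the developing heart canonical signalling is needed at some stages and must be held back at others, and secreted inhibitors are part of that restraint.

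Values are log2 expression, and a difference is the log2 ratio of hAFS-CM_Hypo + Dox over Dox, read for each gene at its probe set of highest mean. As a guide to what is above background, the 44 probe sets of olfactory receptor genes, a class not known to be used as a whole by heart cells, were taken, and 95% of their values lay at or below 5.08. The highest of their values was 5.81, so a level between 5.08 and 5.81 still lay within their range. The log2 ratios of these 44 probe sets ran from -0.43 to 0.42. Probe sets of the same gene differed in log2 ratio with an SD of 0.21, over the 5299 genes with several probe sets of sufficient signal, and this value, called the probe set SD, holds no variation between cultures. Probe sets bind with different strength, so the level of one gene is not set against that of another.

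As a check of the labelled cell type, all 12 cardiomyocyte markers lay above the background level on both arrays, from 9.78 to 15.05. Markers of other heart cells lay above it as well. Above background on both arrays were 9 of 10 fibroblast, 13 of 14 endothelial, 8 of 10 macrophage, 6 of 8 smooth muscle and pericyte, and 8 of 8 epicardial markers. Of all genes, 64.4% lay above it on both arrays. The median log2 ratio of the markers was -0.15 for cardiomyocytes, 0.23 for macrophages and 0.14 for smooth muscle and pericytes, with the remaining types given beside the genes they concern. Genes used as markers of other cell types thus gave signal here, but passing this level does not by itself show that a type was present. For any type, fewer cells and less RNA per cell cannot be told apart.

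Few Wnt genes differed between the arrays by much. Of the 52, only *Tspan12* differed by 2-fold or more at the probe set used, and it was lower on the hAFS-CM_Hypo + Dox array. Over all genes, 0.506% were higher by 2-fold and 0.214% were lower by 2-fold. At 1.5-fold, *Frzb* was higher, and *Wif1* and *Tspan12* were lower, where 2.32% of all genes were higher and 1.52% were lower. *Frzb*, at 0.59, lay only just inside that threshold, and *Rspo3*, at 0.55, just outside it. By more than the probe set SD, 10 of the 52 were higher and 11 were lower, which is 19.2% and 21.2% of them, beside 17.5% and 15.5% of all genes. These shares lie near those of all genes. The median log2 ratio was -0.01 for the Wnt genes and 0.01 for all genes. Of the 52, 35 lay above the background level on both arrays, 1 on the Dox array alone and 16 on neither. The 35 are 67.3% of the Wnt genes, and 64.4% of all genes lay above it on both arrays.

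**Figure D1:**
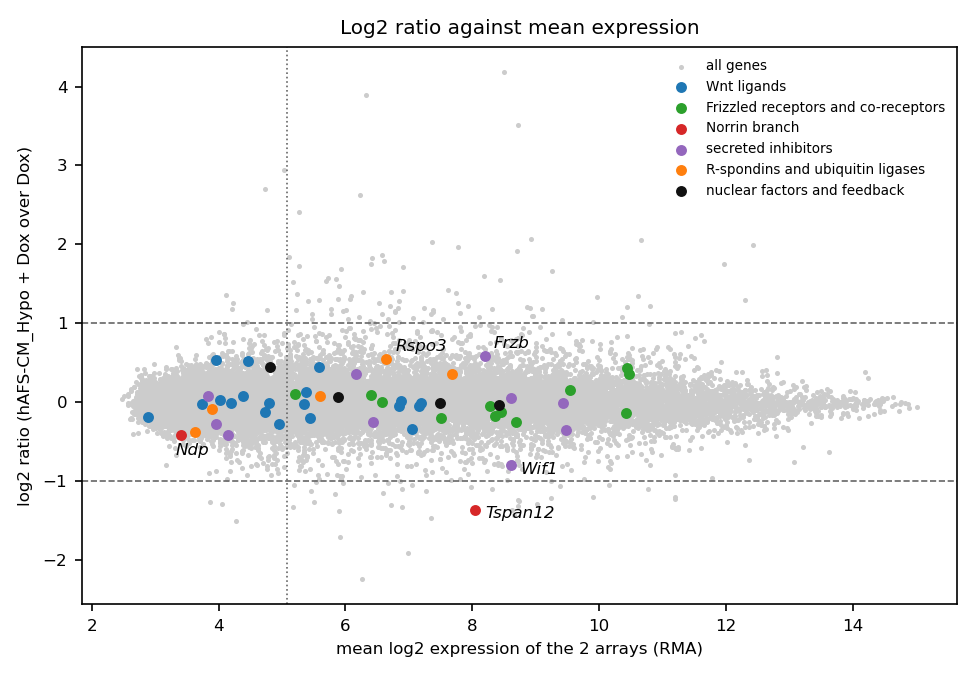
Log2 ratio (hAFS-CM_Hypo + Dox over Dox) plotted by gene over the mean of both log2 values, with the Wnt genes coloured by role and all 18193 genes in grey. The dashed lines mark 2-fold and the dotted line the background level of 5.08. *Tspan12*, at -1.37, is the only Wnt gene beyond a dashed line, and *Wif1*, at -0.79, comes next.

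*Tspan12* codes for a tetraspanin that joins the receptor Frizzled 4 and strengthens its response to Norrin, a ligand that is not a Wnt protein and is known for its part in the growth of retinal vessels. Its level was 7.36 on the hAFS-CM_Hypo + Dox array and 8.73 on the Dox array, both above background. The log2 ratio was -1.37, or 2.58 times lower, the 8th lowest of all 18193 genes. Only 1 probe set was named for *Tspan12*, of a type (_s_at) that can also match transcripts of other genes, so no other probe set of these arrays could be set beside it.

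The partners of *Tspan12* showed no difference of that size. *Fzd4*, which codes for the receptor, had 8.39 with hAFS-CM_Hypo + Dox and 8.51 with Dox, a log2 ratio of -0.12. Another probe set of *Fzd4* above background had the opposite sign, with 7.04 against 6.62 for Dox, a log2 ratio of 0.43. The co-receptor gene *Lrp5* had 5.25 against 5.15 for Dox, close to the background level, and *Lrp6* had 8.26 against 8.31. *Ndp*, the gene of Norrin itself, was not above background on either array, at 3.21 against 3.62 for Dox.

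Endothelial cells are the best-known site of Frizzled 4 signalling, and the endothelial markers are given beside this result. Of 14 measured, 2 were higher and 2 were lower by more than the probe set SD, 14.3% each way beside 17.5% and 15.5% of all genes, with a median log2 ratio of 0.10. *Pecam1*, an adhesion molecule of endothelial junctions, had 7.88 against 7.85 for Dox, and *Cdh5*, the cadherin of those junctions, had 9.07 against 8.93. *Clec14a*, an endothelial lectin, was the one past 2-fold, lower with 5.21 against 6.58 for Dox, while the second probe set gave -0.12. The summed linear level of the 14 markers was 3845 with hAFS-CM_Hypo + Dox and 3735 with Dox. Such a sum is carried mostly by the markers of highest signal and does not measure the number of cells. The part of these markers in the value of *Tspan12* was not tested.

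The promoters of the 3 genes past 1.5-fold are shown because these carry the largest differences in the group. Each run holds 250 bases before and 50 after the transcription start, 5′ to 3′ on the strand of the gene, from RefSeq on GRCm38.p6, with CpG dinucleotides in capitals.
Tspan12, chr6:21852484-21852783, minus strand: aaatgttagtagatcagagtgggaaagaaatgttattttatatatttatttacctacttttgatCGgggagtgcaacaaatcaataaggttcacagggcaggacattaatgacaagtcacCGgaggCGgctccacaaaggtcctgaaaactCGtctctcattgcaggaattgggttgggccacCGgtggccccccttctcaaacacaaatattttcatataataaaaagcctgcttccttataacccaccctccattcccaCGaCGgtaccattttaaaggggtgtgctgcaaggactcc
Wif1, chr10:121033754-121034053, plus strand: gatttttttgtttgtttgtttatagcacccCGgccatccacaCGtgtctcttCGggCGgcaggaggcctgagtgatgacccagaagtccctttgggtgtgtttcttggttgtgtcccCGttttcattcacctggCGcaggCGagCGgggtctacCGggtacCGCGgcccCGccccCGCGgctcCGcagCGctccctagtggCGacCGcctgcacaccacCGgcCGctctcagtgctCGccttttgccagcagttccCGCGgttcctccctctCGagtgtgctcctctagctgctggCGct
Frzb, chr2:80447347-80447646, minus strand: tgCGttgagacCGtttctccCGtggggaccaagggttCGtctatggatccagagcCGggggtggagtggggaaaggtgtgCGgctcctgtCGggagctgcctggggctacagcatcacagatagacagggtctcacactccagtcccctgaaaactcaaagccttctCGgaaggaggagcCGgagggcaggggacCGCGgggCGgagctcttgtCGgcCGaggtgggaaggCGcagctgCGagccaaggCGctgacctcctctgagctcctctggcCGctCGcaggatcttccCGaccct

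The *Tspan12* window held 7 CpG dinucleotides, the *Wif1* window 25 and the *Frzb* window 20. Over the 43 windows matched to 35 of the Wnt genes the median was 24, and over all 32851 windows of the table it was 7. The *Tspan12* window thus lay below the median of the Wnt gene windows and at the median of all windows. None of the 3 windows held the TCF/LEF core, taken as CTTTG followed by 2 bases that are each A or T, on either strand, which 18.6% of the Wnt gene windows and 16.9% of all windows held. None held the NF-κB consensus either, on either strand, which 14.0% of the Wnt gene windows and 8.46% of all windows held. No match says only that these letters are not in these windows.

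Most secreted inhibitors bind either Wnt ligands or the LRP co-receptors, and this group held the largest differences after *Tspan12*. *Wif1* codes for Wnt inhibitory factor 1, which binds Wnt ligands directly. Its level was 8.21 on the hAFS-CM_Hypo + Dox array and 9.00 on the Dox array, a log2 ratio of -0.79 or 1.73 times lower, and it ranked 101 from the lowest of all genes. A single probe set carried its name, of a type (_a_at) that can match several transcripts of a gene.

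*Frzb* codes for secreted frizzled-related protein 3, which carries a domain like that of the Frizzled receptors and binds Wnt ligands outside the cell. It went the other way, with 8.49 for hAFS-CM_Hypo + Dox against 7.90 for Dox, which is 0.59 on the log2 scale or 1.5-fold. Its other probe set, at 6.44 against 5.80 for Dox, had 0.65. Both probe sets were above background on both arrays and gave a difference of nearly the same size.

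The probe sets of *Sfrp1*, another inhibitor of this family, did not share a direction. The one of highest mean had 9.31 with hAFS-CM_Hypo + Dox and 9.66 with Dox, a log2 ratio of -0.36. The next had 9.00 against 8.47 for Dox, a log2 ratio of 0.53. Of the other 3, one had 7.98 against 7.56 for Dox, one had 7.41 against 6.94, and one of a less specific type (_x_at) had 6.44 against 6.62. Thus 3 probe sets were higher on the hAFS-CM_Hypo + Dox array and 2 were lower, all above background on both arrays, and *Sfrp1* has no settled direction here. With the mean of its 5 probe sets the log2 ratio was 0.18.

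The remaining inhibitors differed less. *Sfrp5* had 6.35 with hAFS-CM_Hypo + Dox and 5.98 with Dox, a log2 ratio of 0.36, and 0.17 at its other probe set. *Sfrp4* had 6.32 against 6.56 for Dox, a log2 ratio of -0.24, and *Sfrp2*, at 9.42 against 9.43, was nearly the same on both arrays. *Dkk3*, a divergent member of the Dickkopf family, had 8.64 against 8.58 for Dox, and 8.07 against 8.04 at its other probe set. *Dkk1*, *Dkk2* and *Dkk4*, whose products bind the LRP co-receptors, were not above background on either array. *Dkk1* had 3.93 against 4.35 for Dox, *Dkk2* 3.87 against 3.80 and *Dkk4* 3.82 against 4.09, and the other probe set of *Dkk1* had a log2 ratio of 0.19, opposite to the -0.41 of the one used. Of the 10 inhibitors, 2 were higher and 5 were lower by more than the probe set SD, beside 17.5% and 15.5% of all genes. Of those 5, *Dkk1* and *Dkk4* were not above background and *Sfrp1* had probe sets in both directions.

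Several inhibitors are known from fibroblasts and epicardial cells, so the markers of these cells are given beside them. Of 10 fibroblast markers, 3 were higher and 4 were lower by more than the probe set SD, and of 8 epicardial markers 3 were higher and 4 were lower, where 17.5% of all genes were higher and 15.5% lower. The median log2 ratio was -0.08 for the fibroblast and -0.01 for the epicardial markers. The fibroblast markers ran from -1.03 for *Tcf21*, a transcription factor of fibroblasts and epicardium, to 0.79 for *Pdgfra*, a growth factor receptor. The probe sets of both disagreed, with 0.18 at the other of *Tcf21* and a range from -0.05 to 0.79 over the 3 of *Pdgfra*. The epicardial markers ran from -0.76 for *Tbx18*, a transcription factor, to 0.75 for *Aldh1a2*, which makes retinoic acid. *Tbx18* had -0.97 at its other probe set, and *Upk1b*, at -0.30, had 4 probe sets from -0.30 to 1.01. The summed linear level of the fibroblast markers was 16129 with hAFS-CM_Hypo + Dox and 16641 with Dox, and that of the epicardial markers 2734 and 2904. These sums too are carried mostly by the markers of highest signal, so near-equal sums do not show equal cell content. The part of these markers in the values of the inhibitors was not tested.

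**Figure D2:**
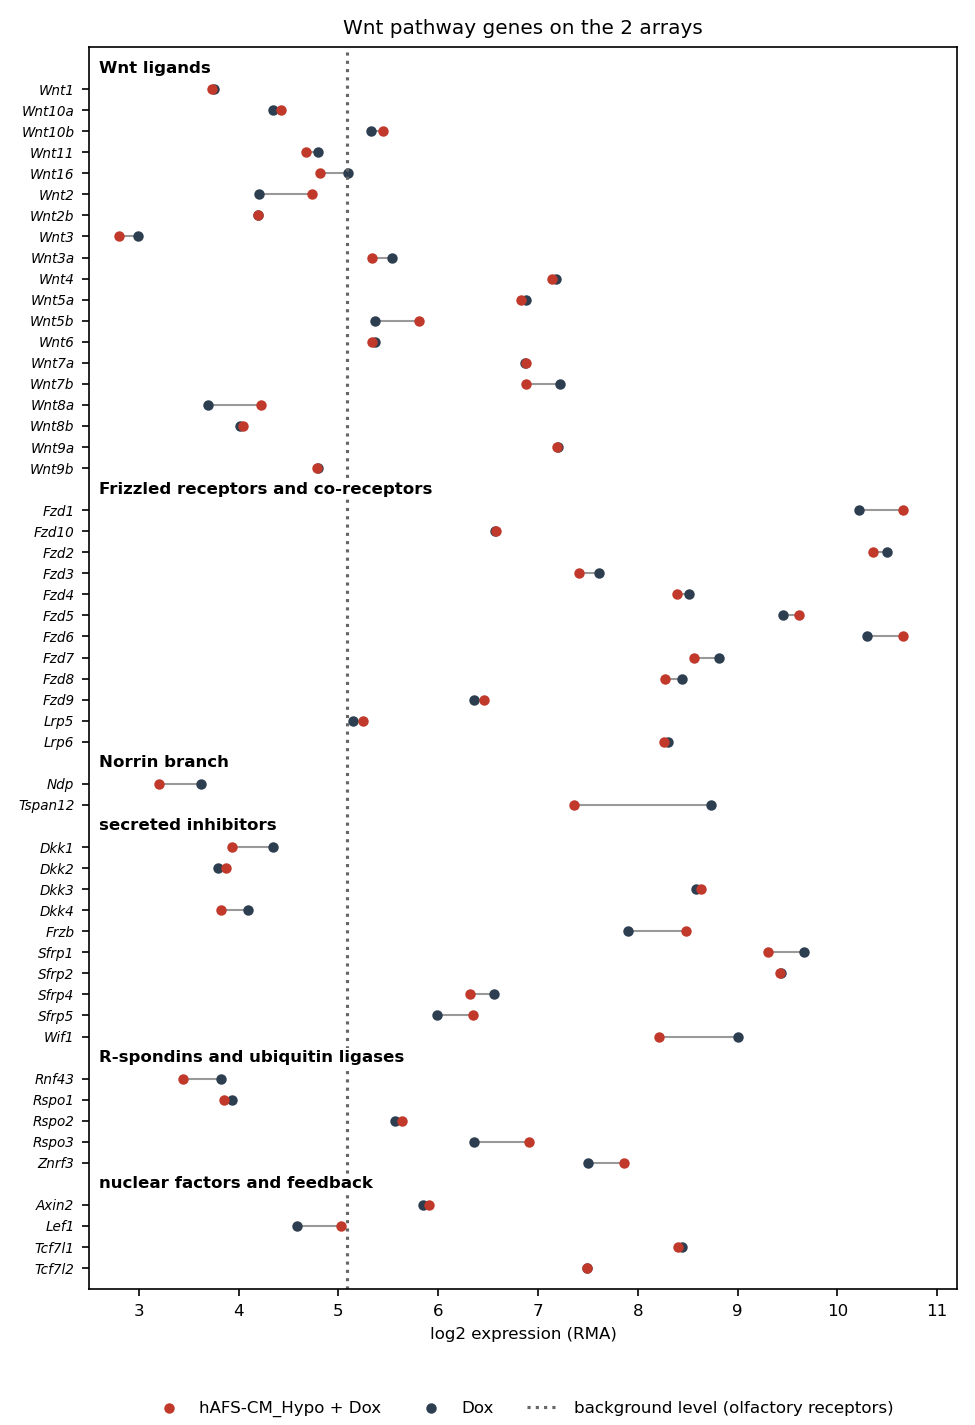
Log2 expression of the 52 Wnt genes on the hAFS-CM_Hypo + Dox array (red) and the Dox array (dark), each taken from the probe set of highest mean and grouped by role. The dotted line is the background level of 5.08. The longest line joins 7.36 for hAFS-CM_Hypo + Dox and 8.73 for Dox in *Tspan12*, and all 12 Frizzled receptors and co-receptors lie to the right of the dotted line.

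All 10 Frizzled genes lay above background on both arrays, and none differed by 1.5-fold at the probe set used. *Fzd1* had 10.66 with hAFS-CM_Hypo + Dox and 10.22 with Dox, a log2 ratio of 0.44. Its other probe set, near background, had 5.22 against 5.29 for Dox. *Fzd6*, which takes part in planar cell polarity, had 10.66 with hAFS-CM_Hypo + Dox and 10.30 with Dox, a log2 ratio of 0.36. A further probe set of *Fzd6* had a larger difference, 7.35 against 6.46 for Dox or 0.89 on the log2 scale, which passed 1.5-fold. Its last, with 4.27 against 4.22, was not above background.

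*Fzd7* was lower at both of its probe sets, with 8.56 against 8.81 for Dox and 5.43 against 5.67, log2 ratios of -0.25 and -0.24. *Fzd2* had 10.36 against 10.50 for Dox, a log2 ratio of -0.14, and its 3 probe sets ran from -0.32 to -0.14. *Fzd3*, a polarity receptor, had 7.41 against 7.61 for Dox, with 6 probe sets from -0.23 to 0.03. *Fzd8* had 8.27 against 8.44 for Dox and *Fzd5* had 9.61 against 9.46. *Fzd9*, with 6.46 against 6.36, and *Fzd10*, with 6.58 against 6.57, lay close together on the arrays. Of the 10, *Fzd1* and *Fzd6* were higher and *Fzd7* was lower by more than the probe set SD. That is 20% and 10% of them, near the 17.5% and 15.5% of all genes. The co-receptor gene *Lrp6* was within that SD at the probe set used and had -0.34 at its other, with 6.14 against 6.48 for Dox.

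All 19 mouse Wnt ligand genes were measured, and 9 of them lay above background on both arrays. They were *Wnt3a*, *Wnt4*, *Wnt5a*, *Wnt5b*, *Wnt6*, *Wnt7a*, *Wnt7b*, *Wnt9a* and *Wnt10b*. On both arrays *Wnt3a*, *Wnt6* and *Wnt10b* lay below 5.81, the highest value of the olfactory receptor probe sets. On the Dox array *Wnt5b* did as well. The log2 ratios of the 9 ran from -0.34 for *Wnt7b* to 0.44 for *Wnt5b*. *Wnt7b*, a ligand that acts on β-catenin in brain vessels, had 6.88 with hAFS-CM_Hypo + Dox and 7.22 with Dox. *Wnt5b*, a close relative of *Wnt5a*, had 5.81 against 5.37 for Dox at a probe set of a less specific type (_x_at). Its other probe set (_a_at), not above background, had 4.67 against 4.54, a log2 ratio of 0.13. The remaining 7 of these 9 were within the probe set SD.

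*Wnt5a*, a ligand best known for signalling apart from β-catenin, had 6.83 with hAFS-CM_Hypo + Dox and 6.88 with Dox at the probe set used. Another of its 4 probe sets had 4.75 against 5.51 for Dox, a log2 ratio of -0.77, where the first value was not above background. *Wnt4* had 7.14 against 7.18 for Dox, *Wnt9a* 7.19 against 7.20 and *Wnt7a* 6.88 against 6.87, the closest pairs among the ligands above background together with *Wnt6*, at 5.34 against 5.36. *Wnt3a*, a canonical ligand, had 5.33 against 5.54 for Dox and *Wnt10b* had 5.45 against 5.32.

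*Wnt16* was just above background on the Dox array alone, with 4.82 for hAFS-CM_Hypo + Dox and 5.09 for Dox. The other 9 ligands, *Wnt1*, *Wnt2*, *Wnt2b*, *Wnt3*, *Wnt8a*, *Wnt8b*, *Wnt9b*, *Wnt10a* and *Wnt11*, were not above background on either array. Among them *Wnt2*, with 4.73 against 4.21 for Dox, and *Wnt8a*, with 4.22 against 3.69, had log2 ratios of 0.52 and 0.53. Both ratios lay beyond the highest of the olfactory receptor probe sets, 0.42, yet the levels do not show that either gene was expressed.

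R-spondins are secreted proteins that bind LGR receptors and draw the ubiquitin ligases ZNRF3 and RNF43 away from Frizzled receptors, which these ligases would otherwise remove from the cell surface. *Rspo3* had 6.91 with hAFS-CM_Hypo + Dox and 6.36 with Dox, a log2 ratio of 0.55. Its other probe set, not above background, had 4.48 against 4.49 for Dox. *Znrf3*, itself a target of β-catenin, had 7.86 against 7.50 for Dox, a log2 ratio of 0.35, and its other probe set had 0.40 at a level not above background, 5.06 against 4.66. *Rspo2* had 5.64 against 5.57 for Dox. *Rspo1*, with 3.85 against 3.93 for Dox, and *Rnf43*, with 3.44 against 3.82, were not above background on either array. Of the 5 genes of this group, 2 were higher and 1 was lower by more than the probe set SD, beside 17.5% and 15.5% of all genes. The higher ones, *Rspo3* and *Znrf3*, were above background, and the lower one, *Rnf43*, was not. With the mean of its probe sets *Rspo3* had a log2 ratio of 0.27.

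The nuclear factors and *Axin2* differed little. *Axin2*, a scaffold of the destruction complex and a widely used readout of canonical signalling, had 5.91 with hAFS-CM_Hypo + Dox and 5.85 with Dox, a log2 ratio of 0.06. Its other probe set was not above background, at 3.52 against 3.23 for Dox. *Tcf7l1*, which codes mainly for a repressor, had 8.41 against 8.44 for Dox. *Tcf7l2* had 7.49 on both arrays, and its 4 probe sets ran from -0.49 to 0.07, the lowest with 6.12 against 6.60 for Dox. *Lef1* had 5.02 against 4.58 for Dox, a log2 ratio of 0.44, but was not above background on either array.

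**Figure D3:**
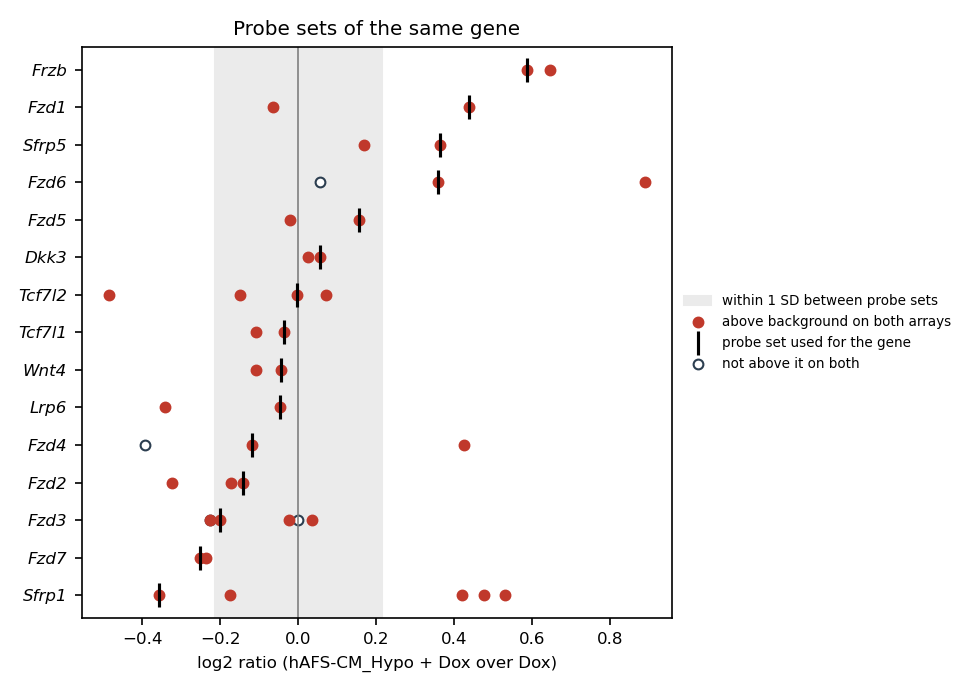
Log2 ratio (hAFS-CM_Hypo + Dox over Dox) of every probe set of the 15 Wnt genes with at least 2 probe sets above background on both arrays. Filled points are above background on both arrays, open points are not, the black bar marks the probe set used for the gene, and the grey band is the probe set SD, 0.21 to either side. Both probe sets of *Frzb* lie above 0.5, whereas those of *Sfrp1* run from -0.36 to 0.53.

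How far a difference held across probe sets could be asked for 15 Wnt genes, those with at least 2 probe sets above background on both arrays. In 3 of them, *Frzb*, *Fzd6* and *Fzd7*, every such probe set lay beyond the SD on the same side. Those of *Fzd7*, at -0.25 and -0.24, only just passed it. In 1, *Sfrp1*, probe sets lay beyond it on opposite sides. The same counts were not made over all genes, so whether 3 of 15 is many or few is not known. The 21 genes with a single probe set, *Tspan12* and *Wif1* among them, could not be read in this way.

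Other genes of the pathway were taken from lists by role. None of their members differed by 2-fold in either direction. All 18 genes listed under the destruction complex and transducers were above background on both arrays. By more than the probe set SD, 2 were higher and 1 was lower (11.1% and 5.56%, beside 17.5% and 15.5% of all genes). The median log2 ratio of the 18 was 0.06. *Ctnnb1*, the gene of β-catenin, had 13.15 with hAFS-CM_Hypo + Dox and 13.08 with Dox. Of 14 nuclear partners of β-catenin and TCF, 3 were higher and 1 was lower by more than that SD (median 0.08). That is 21.4% and 7.14% of them, beside 17.5% and 15.5% of all genes. Of the 3 higher, *Tle2* was not above background on either array, and the 4 probe sets of *Crebbp* ran from -0.62 to 0.25.

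Of 19 measured genes of Wnt secretion and extracellular handling, 5 were higher and 5 were lower by more than the probe set SD, 26.3% each way beside 17.5% and 15.5% of all genes, with a median of -0.08. *Notum* codes for an enzyme that takes the lipid off Wnt proteins and so inactivates them. It had 5.58 with hAFS-CM_Hypo + Dox and 4.91 with Dox, a log2 ratio of 0.67 from 1 probe set, and only the first value was above background. *Wls*, which carries Wnt proteins to the cell surface, had 11.94 against 12.12 for Dox, with 4 probe sets from -0.38 to -0.06.

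Of 18 genes of non-canonical receptors and planar polarity, 3 were higher and 2 were lower by more than the probe set SD, which is 16.7% and 11.1% beside 17.5% and 15.5% of all genes (median 0.05). *Ror1*, a receptor tyrosine kinase that binds Wnt5a, had 7.83 with hAFS-CM_Hypo + Dox and 8.56 with Dox, a log2 ratio of -0.73. Its 3 probe sets ran from -0.73 to -0.59, all on the same side. *Ror2*, its relative, had 6.51 against 6.45 for Dox.

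Of 23 measured target genes of β-catenin, 7 were higher and 4 were lower by more than the probe set SD, which is 30.4% and 17.4% of them beside 17.5% and 15.5% of all genes, with a median log2 ratio of 0.13. The medians over these lists stand beside 0.01 for all genes. *Cd44*, an adhesion receptor for hyaluronan, had 11.64 with hAFS-CM_Hypo + Dox and 10.76 with Dox, a log2 ratio of 0.88, with 4 probe sets from -0.01 to 0.91. *Ccn4*, a matricellular protein, had 11.16 against 10.53 for Dox, a log2 ratio of 0.62 that its other probe set shared. *Ccnd1*, the gene of cyclin D1, had 10.63 against 11.12 for Dox, a log2 ratio of -0.49, with 3 probe sets from -0.70 to -0.42. The feedback inhibitors *Nkd1* and *Nkd2* had log2 ratios of -0.11 and 0.42. The 4 probe sets of *Nkd1* ran from -0.29 to 0.03 and the 4 of *Nkd2* from 0.02 to 0.42. *Apcdd1*, an inhibitor at the cell surface, had -0.29, with 6 probe sets from -0.48 to 0.27. The target list also holds genes that other pathways drive, *Cd44*, *Myc* and *Ccnd1* among them, and it shares *Notum*, *Lgr5* and *Apcdd1* with the list of secretion and handling.

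**Figure D4:**
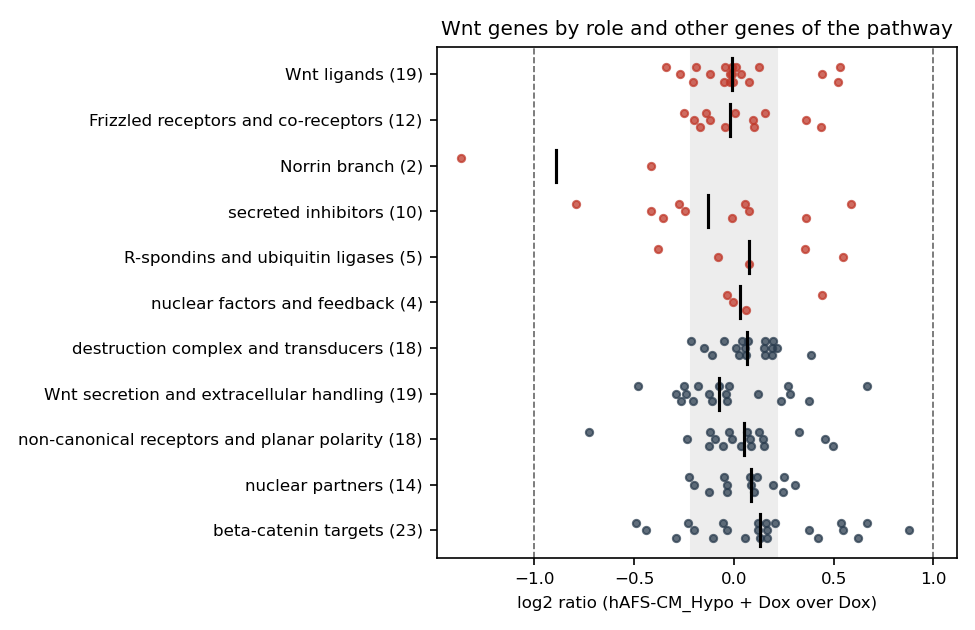
Log2 ratio (hAFS-CM_Hypo + Dox over Dox) of the Wnt genes by role (red) and of 5 lists of other genes of the pathway (dark), 1 point per gene, with the number of measured genes in brackets. Black bars are medians, dashed lines mark 2-fold and the grey band is the probe set SD, 0.21 to either side. Only *Tspan12*, in the Norrin branch, lies beyond a dashed line.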

How the data were processed

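The authors hybridised total RNA to Affymetrix mouse arrays and deposited 1 log2 value per probe set, made by RMA with quantile normalization. Values ran up to 15.05, as log2 RMA values do, and the software version is not given in the sources used here. The arrays had medians of 5.10 (hAFS-CM_Hypo + Dox) and 5.10 (Dox). Genes were named from the platform annotation, updated through the Entrez ID with RefSeq genes of GRCm38.p6. Of 45101 probe sets, 34958 carried 1 gene, 932 several and 9211 none, and the 64 Affymetrix controls were not used as genes. The RNA opposite *Fzd10*, *Fzd10os*, was not counted as a Frizzled gene.

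Each gene was read at its probe set of highest mean. No test across arrays could be made with 1 array per condition, so genes past 2-fold, the threshold of the study's methods, were counted beside the same share of all genes. The members, the lists and the rule for named genes were chosen with earlier results of these data known. Named with their levels were members at 1.5-fold or more, those above background on both arrays, the Norrin branch and the feedback genes, and from the other lists genes at 1.5-fold or more that were above background on the higher array. *Ctnnb1*, *Tle2*, *Crebbp*, *Wls*, *Ror2*, *Ccnd1*, *Nkd1*, *Nkd2*, *Apcdd1* and the cell type markers given by name were added after their values were seen.

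Alternatives were thresholds of 1.5-fold and 3-fold, other choices of probe set, filters at the 25th percentile (3.80) and the median (5.10), centring, lowess correction (span 0.3) and leaving out less specific probe set types. Tables were made in Python 3.11.15 with pandas 2.3.3 and numpy 2.4.6, lowess came from statsmodels 0.14.6, and figures were drawn with matplotlib 3.10.9.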

Additional observations from a re-analysis of the deposited data

How the results depend on the processing

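The count of Wnt genes at 2-fold, 0 higher and 1 lower, was the same with the mean of all probe sets, the probe set with the largest change, both filters on low signal, centred ratios and lowess-corrected ratios. A threshold of 1.5-fold gave 1 higher and 2 lower, and one of 3-fold gave 0 lower. Leaving out the less specific probe set types gave 0 lower, since 5 genes, *Tspan12*, *Wif1*, *Wnt3*, *Wnt5b* and *Wnt10b*, then had no probe set. Over all genes the counts at 2-fold were 92 higher and 39 lower, and with the largest change 115 and 83. At 1.5-fold they were 422 and 277, and at 3-fold 24 and 3. The median log2 ratio of the Wnt genes lay between -0.09 (largest change) and -0.00 (filter at the median). Single genes moved by more than the probe set SD only with another choice of probe set, 5 of 52 with the mean (*Dkk1*, *Fzd1*, *Rspo3*, *Sfrp1* and *Wnt6*) and 13 of 52 with the largest change. Among these, *Sfrp1* changed sign, with 0.18 for the mean and 0.53 for the largest change, against -0.36, and with the largest change *Fzd4* (0.43 against -0.12) and *Rspo2* (-0.15 against 0.07) did too. No paired analysis was possible because there was 1 array per condition. The number of arrays limits the precision, and the values of the 16 genes not above background are not shown to be signal.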
